A study of Zea mays with 7 samples.

Results

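In ear primordia of the maize mutant *Bif3*, 67 genes already well expressed in wild-type were present at 2 or more times the wild-type level, and in every one of them the lowest *Bif3/Bif3* pool lay above the highest wild-type pool. The genes were chosen by their levels in the count table, in CPM, the count of a gene divided by the total count of its pool and multiplied by 1000000. A gene was a member when its mean wild-type CPM was at least 10, its mean *Bif3/Bif3* CPM was at least 2 times that mean, and no wild-type pool reached any mutant pool. Of 110451 genes in the table, 13950 reached the wild-type level, 79 of these also reached the fold, and 69 met all 3 conditions. The receptor kinase gene *ZmBAM1d* (GRMZM2G043584) and the little zipper gene *ZmZPR4b* (GRMZM2G062504) were left out by the rule, which gave 67. Because the levels themselves chose the members, their difference between genotypes is given below as a description, with no test.

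Ear primordia of 3-4 mm had been collected from field-grown B73 plants for RNA-seq, as 4 pools of *Bif3* mutants and 3 pools of wild-type siblings with 3 ears in each. Mutant ears were collected by their appearance, and the plants were homozygous according to the study's methods. All mutant pools carry the same allele, a tandem duplication at *ZmWUS1*. Pools of 1 genotype are described as biological replicates in the study's methods, and no age beyond ear length is given. In pooled tissue of this kind, more cells of a type and more RNA per cell cannot be told apart.

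The ear primordium carries an inflorescence meristem (IM) at its tip, which forms the axillary meristems that become spikelets. *ZmWUS1* is a maize counterpart of Arabidopsis *WUSCHEL*, which encodes a homeodomain transcription factor made in the organizing center below the stem cells of a shoot meristem and keeps them undifferentiated. *Bif3* inflorescences express this gene from a duplicated copy and have enlarged, disorganized IMs.

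Total counts per pool were between 41720131 and 56057512, and the lowest count behind any value of a member was 300. *ZmWUS1* (GRMZM2G047448) had 0.551, 0.321 and 0.311 CPM in wild-type replicates 1 to 3 and 4.47, 5.25, 3.83 and 12.5 CPM in *Bif3/Bif3* replicates 1 to 4, so that the genotypes were clearly apart and mutant replicate 4 was the highest. The 7 ear inflorescence markers with an identifier summed to 646 to 841 CPM in wild-type and 736 to 879 CPM in *Bif3/Bif3*. The meristem gene *kn1* held most of this, with 414 to 498 CPM in wild-type and 487 to 603 CPM in the mutant. Of the 7, 2 passed the threshold explained below, *BA1* and *ra3*, both downward. *ub2* did not pass, but its mutant pools (63.4 to 72.1 CPM) all lay above its wild-type pools (38.7 to 59.4 CPM). In the edgeR fit described below, 6 of the 7 had an unadjusted p under 0.05. The 14 markers of green leaf tissue had a sum between 0.874 and 3.78 CPM in wild-type and between 1.14 and 4.17 CPM in *Bif3/Bif3*, with 3 of them at 0 in every pool. Summed markers of vascular tissue and secondary wall (36.7 to 40.9 CPM in wild-type, 31.1 to 37.6 CPM in *Bif3/Bif3*; 11 genes, 5 at 0 in every pool) and of epidermis and cuticle (192 to 202 CPM and 165 to 194 CPM; 7 genes) overlapped between genotypes or were lower in the mutant. The 33 MADS-box genes were found by symbol alone and need not all be genes of floral organs. They summed to between 752 and 919 CPM in wild-type and between 786 and 926 CPM in *Bif3/Bif3*. Of the 30 that could be fitted, 3 passed the threshold, all upward. *MADS5* (GRMZM2G102161) had 0.312, 0 and 0.0194 CPM in wild-type and 5.13, 2.54, 4.12 and 4.68 CPM in *Bif3/Bif3*, *MADS37* (GRMZM2G052890) had 0 to 0.0388 and 0.179 to 2.24 CPM, and *zmm31* (GRMZM2G071620) had 28.7 to 59.7 and 54.9 to 90.6 CPM. The part of cell composition in the levels of the 67 genes was not tested.

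Together the 67 genes made up 0.246% to 0.283% of a wild-type pool's counts and 0.673%, 0.752%, 0.463% and 0.637% of those of *Bif3/Bif3* replicates 1 to 4. *Bif3/Bif3* replicate 3 was thus the mutant pool nearest to wild-type. That every mutant pool exceeded every wild-type pool in this share follows from the rule. The ratio of the mean mutant to the mean wild-type CPM ranged from 2.001 to 5.02 with a median of 2.28, against a median of 0.976 over the 13883 other genes with at least 10 CPM in wild-type. It was 3 or more for 6 members, at least 2.5 for 23 and under 2.5 for 44. In 51 members every mutant pool was at least 1.5 times the wild-type mean, and in 7 every mutant pool was at least 2 times that mean. In the other direction, 15 of the genes with the same minimum of 10 CPM in wild-type had a wild-type mean at least 2 times the mutant mean and no overlap between the pools, with no minimum set for the mutant level.

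**Figure D1:**
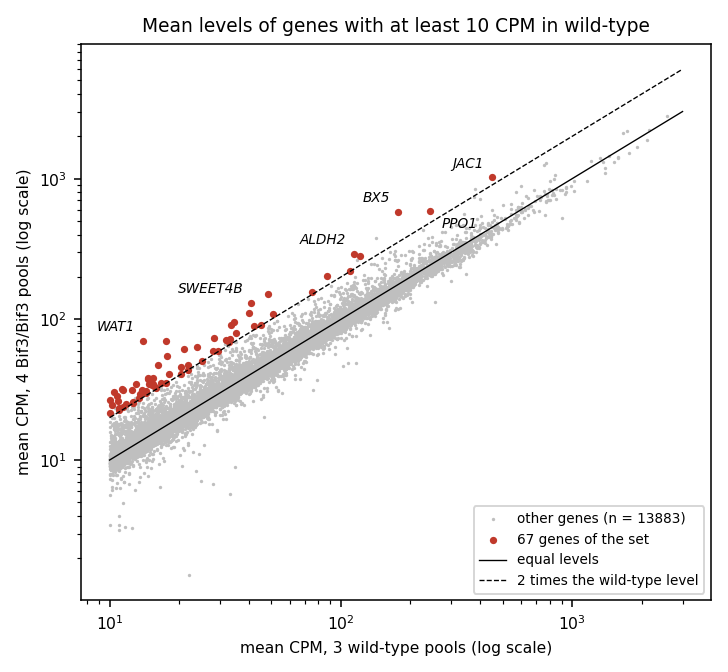
Mean CPM in the 4 *Bif3/Bif3* pools against mean CPM in the 3 wild-type pools, both on log scales, for the 13950 genes with at least 10 CPM in wild-type. The 67 genes (red) lie on or above the dashed line at 2 times the wild-type level, and the most counted of them is *JAC1*.

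In the quasi-likelihood fit of edgeR over 40650 genes, 67 of the 67 members passed the threshold of p under 0.05, adjusted p under 0.1 and a fold over 1.5, and were higher in *Bif3/Bif3*. The same call was made for 3.39% of all genes fitted and for 2.08% of those with at least 10 CPM in wild-type. Nothing can be read from this count, because the rule used the same contrast. The median log2 fold change of the members was 1.15, against -0.01 over all genes fitted and -0.07 over the genes with at least 10 CPM. Pools that did not overlap, with the mutant higher, were seen in 8.32% of the genes with at least 10 CPM, and the fold and the absence of overlap together in 0.495%.

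Names were available for 58 of the members, and the remaining 9 carried none. The named genes included 7 transcription factors, 11 receptor kinases and other signalling proteins, 4 genes of hormone transport or breakdown, 3 glutamine synthetases, 8 genes of sugar transport and the cell wall, 4 of defence and stress, 4 proteases, 8 other enzymes and transfer proteins, 4 genes of chromatin, the ribosome or photosynthesis, and 5 whose names give no role that is described here. In these groups the median ratio lay between 2.08 for the transcription factors and 2.70 for the defence and stress genes.

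**Figure D2:**
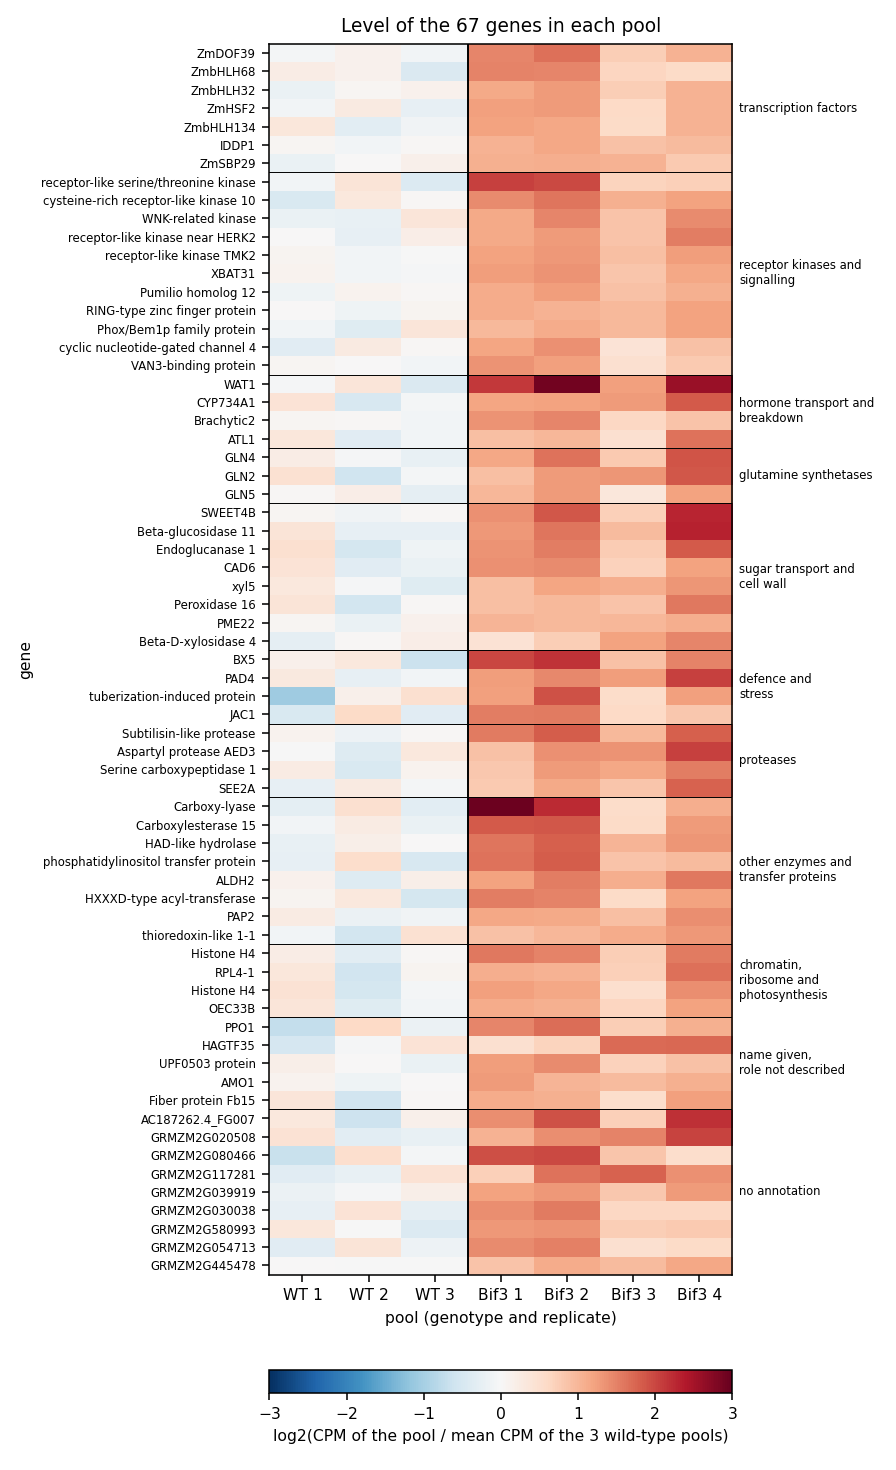
Level of each of the 67 genes (rows, grouped by role) in each pool (columns), as the log2 ratio of the pool's CPM to the mean of the 3 wild-type pools, with red above and blue below that mean. *Bif3/Bif3* replicate 3 is the palest mutant column for most rows, and replicate 4 is the darkest for most genes of sugar transport and the cell wall.

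Among the transcription factors, *ZmSBP29* (GRMZM2G067624) took the most counts. It encodes an SBP-box protein, a plant family whose members control phase change and inflorescence architecture, and its closest Arabidopsis gene is *SPL4*. *ZmSBP29* had 96.4, 111 and 123 CPM in the wild-type pools and 232, 234, 225 and 190.3 CPM in the *Bif3/Bif3* pools. The mutant pools lay close together here, with replicate 4 the lowest, and the mean was 110.0 ± 13.2 CPM in wild-type (SD, n = 3) against 220.2 ± 20.3 CPM in the mutant (SD, n = 4), a ratio of 2.001. Means are given in this form, with the same n, throughout.

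Members of the bHLH family, DNA-binding proteins that act as dimers, made up 3 of the 7 factors. *ZmbHLH68* (GRMZM2G115960), nearest to the phytochrome-interacting factor *PIF3* of Arabidopsis, had 25.4, 23.9 and 16.2 CPM in wild-type and 61.8, 60.3, 34.4 and 32.7 CPM in *Bif3/Bif3*. Replicates 1 and 2 of the mutant were well above replicates 3 and 4, and the ratio was 2.16. *ZmbHLH32* (GRMZM2G180406) had 28.7, 33.98 and 35.6 CPM in wild-type and 72.5, 78.9, 55.03 and 67.8 CPM in the mutant, a ratio of 2.09. For *ZmbHLH134* (GRMZM2G086474), nearest to *FAMA*, which drives guard cell formation in Arabidopsis, the levels were 37.1, 23.6 and 27.5 CPM and 67.8, 65.6, 43.98 and 60.2 CPM, with a ratio of 2.02. Replicate 3 was the lowest or next to lowest mutant pool for all 3.

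The other factors had ratios between 2.02 and 2.41. *ZmDOF39* (GRMZM2G045678), nearest to the Arabidopsis flowering-time regulator *CDF2*, went from 10.9 ± 0.831 to 26.2 ± 7.24 CPM on average, and *ZmHSF2* (GRMZM2G088242), nearest to the heat shock factor gene *HSFB4*, from 10.9 ± 2.08 to 22.8 ± 4.55 CPM. *IDDP1* (GRMZM2G179677), an INDETERMINATE domain gene, had 25.96, 23.8 and 25.5 CPM in wild-type and 51.8, 56.4, 45.9 and 48.1 CPM in the mutant. None of the 7 factors had its highest level in *Bif3/Bif3* replicate 4, where *ZmWUS1* was highest.

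The gene table names 47 further bHLH genes that could be fitted, none of them a member. Of these, 4 passed the threshold upward and 1 downward, and their median log2 fold change was 0.12. *bHLH36* (GRMZM2G008691) had 7.67, 10.8 and 8.25 CPM in wild-type and 37.5, 38.6, 18.3 and 20.3 CPM in *Bif3/Bif3*, below the level limit of the rule, with a log2 fold change of 1.64 (SE 0.25, edgeR adjusted p = 0.00614). The pools did not overlap, and as in *ZmbHLH68* the first and second mutant replicates were the high ones. The bHLH gene that fell was *BA1* (GRMZM2G397518), which is required to form axillary meristems, from 29.6, 16.5 and 26.9 CPM to 9.58, 8.86, 13.7 and 12.1 CPM, with a log2 fold change of -1.16 (SE 0.20, edgeR adjusted p = 0.0121).

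Receptor-like kinases, membrane proteins that perceive signals outside the cell, supplied 4 members. The gene GRMZM2G043470, annotated only as a probable receptor-like serine/threonine kinase, had 10.7, 14.7 and 8.46 CPM in wild-type and 46.4, 44.6, 17.9 and 18.7 CPM in *Bif3/Bif3*. Its mutant pools fell into a high pair, replicates 1 and 2, and a pair only slightly above wild-type replicate 2, and the ratio of the means was 2.83. The cysteine-rich receptor-like kinase 10 (GRMZM2G431018) had 9.11, 15.5 and 12.9 CPM and 33.2, 38.2, 26.2 and 29.002 CPM, a ratio of 2.53. The gene near *HERK2* (GRMZM2G039922), of a kinase group that acts in cell elongation in Arabidopsis, had 14.9, 12.4 and 17.1 CPM and 32.7, 35.6, 26.6 and 43.2 CPM, a ratio of 2.33. *TMK2* (GRMZM2G001934), named after the transmembrane kinases of Arabidopsis, had the most even levels of the 4, with 19.1, 17.1 and 18.1 CPM in wild-type and 41.6, 44.5, 33.9 and 43.4 CPM in the mutant. Of the 5 receptor-like kinase genes that the table names otherwise, 0 passed the threshold with edgeR or DESeq2, 1 had an unadjusted p under 0.05 in the edgeR fit, and their median log2 fold change was -0.02. These 5 (*RLK*, *serk1*, *serk2*, *serk3* and *cr4*) were found by symbol alone and do not stand for the family. The study reports other receptor kinase genes, among them *TD1* and *ZmBAM1d*, as higher in the mutant.

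The other signalling members covered several protein types. A WNK-related kinase gene (GRMZM2G136831) was among the most counted members and had 105, 103 and 154 CPM in wild-type and 264, 333, 218 and 320.2 CPM in *Bif3/Bif3*. Its lowest mutant pool, replicate 3, was clearly above wild-type replicate 3, and the ratio was 2.35. The gene of an octicosapeptide/Phox/Bem1p protein (GRMZM2G119361) had 70.5, 58.3 and 95.8 CPM in wild-type and 146, 161, 146 and 172 CPM in the mutant, which was one of the smallest spreads among mutant pools. *CNGC4* (GRMZM2G078781), a cyclic nucleotide-gated ion channel gene with a role in immune signalling in Arabidopsis, had a ratio of 2.004, and the ubiquitin ligase gene *XBAT31* (GRMZM2G069162) one of 2.23. The RING-type zinc finger (GRMZM2G144782), Pumilio homolog 12 (GRMZM2G160279), an RNA-binding protein, and the VAN3-binding protein (GRMZM2G078178) had ratios of 2.12, 2.13 and 2.003.

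The largest ratio of all 67 belonged to *WAT1* (GRMZM2G007953), named after *WALLS ARE THIN1* of Arabidopsis, which encodes a vacuolar auxin transporter needed for secondary walls. It had 13.6, 17.9 and 10.4 CPM in the wild-type pools and 60.4, 104, 32.5 and 83.7 CPM in the *Bif3/Bif3* pools. Mutant replicate 2 was more than 3 times replicate 3, so that the ratio of 5.02 between means of 13.9 ± 3.77 and 70.05 ± 30.6 CPM comes with a wide spread. *Brachytic2* (GRMZM2G315375), the ABCB-type auxin efflux transporter whose loss shortens the stalk, was even in wild-type with 14.9, 14.6 and 13.6 CPM and had 36.6, 39.4, 22.2 and 25.9 CPM in the mutant. *ATL1* (GRMZM2G127949), nearest to the auxin influx carrier *AUX1*, had 14.6, 9.10 and 10.8 CPM and 21.3, 22.95, 15.9 and 35.8 CPM. Replicate 3 was the lowest mutant pool for both, and for *ATL1* it was little above wild-type replicate 1, while replicate 4 was the highest for *ATL1* and replicate 2 for *Brachytic2*. *CYP734A1* (GRMZM2G138750), whose Arabidopsis counterpart *BAS1* inactivates brassinosteroids, had 13.4, 7.19 and 9.59 CPM in wild-type and 22.7, 23.3, 24.3 and 35.8 CPM in *Bif3/Bif3*, a ratio of 2.64.

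**Figure D3:**
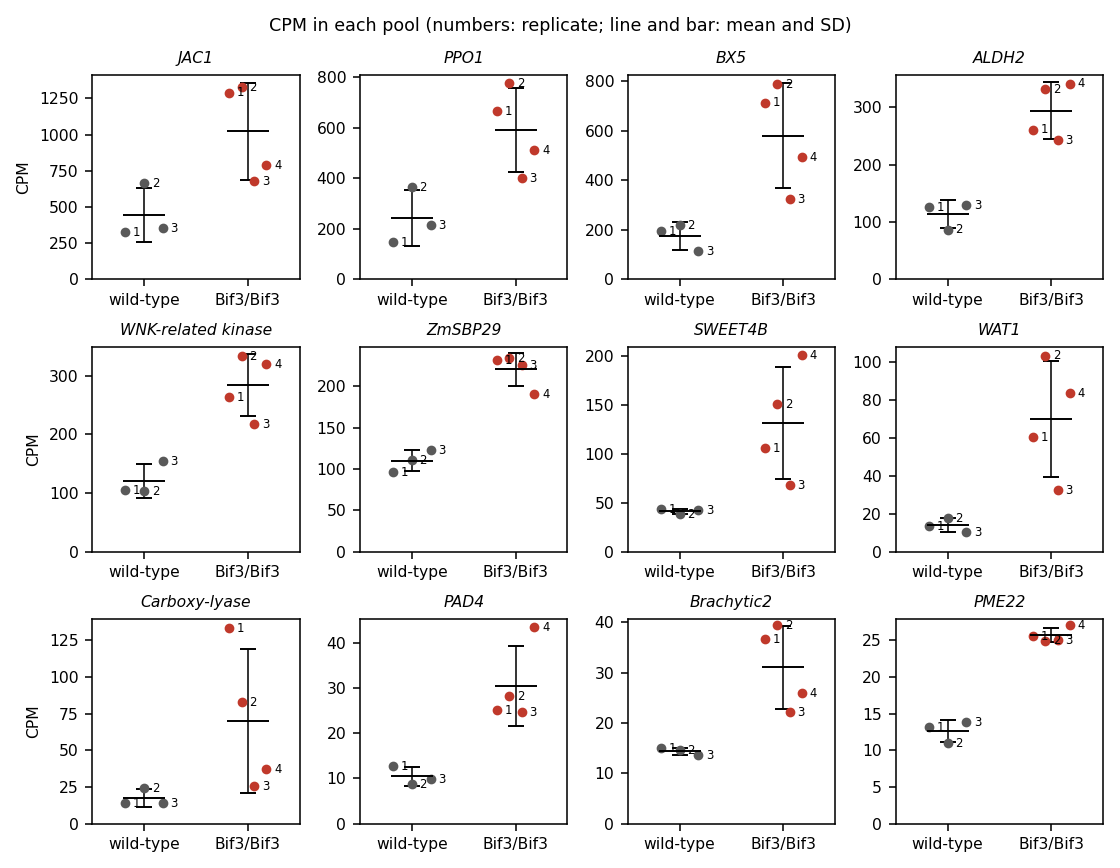
CPM of 12 of the 67 genes in each pool (points, numbered by replicate), with the mean (line) and SD (bars) of the 3 wild-type (grey) and 4 *Bif3/Bif3* (red) pools, each axis starting at 0. *PME22* and *ZmSBP29* have tight mutant pools, whereas *WAT1*, *SWEET4B* and the carboxy-lyase gene spread widely, with different pools on top.

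Glutamine synthetase joins ammonium to glutamate and is the entry point of nitrogen into amino acids. The members included *GLN2* (GRMZM2G024104), *GLN4* (GRMZM5G872068) and *GLN5* (GRMZM2G036464). *GLN4* had 27.8, 23.4 and 20.3 CPM in wild-type and 53.1, 73.7, 41.3 and 88.4 CPM in *Bif3/Bif3*, a ratio of 2.69. *GLN2* had 38.95, 18.7 and 26.99 CPM and 52.4, 68.3, 70.9 and 102 CPM, a ratio of 2.60, with wild-type replicate 2 the lowest and mutant replicate 4 the highest pool. *GLN5* had 46.7, 51.6 and 37.4 CPM and 90.8, 109.7, 57.7 and 104 CPM, and was just inside the fold limit with a ratio of 2.002.

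No such difference was called in the other genes of the family. Of the 4 further identifiers that could be fitted, 0 passed the threshold with edgeR or DESeq2 and 0 had an unadjusted p under 0.05 in the edgeR fit. The gene table gives 2 identifiers for *gln1*. The first (GRMZM2G098290) had 36.9, 41.8 and 51.4 CPM in wild-type and 36.7, 40.7, 43.9 and 51.9 CPM in the mutant, with a log2 fold change of -0.03 (SE 0.14, edgeR adjusted p = 0.941). The second (GRMZM5G885867) had between 26.4 and 29.6 CPM in wild-type and between 23.6 and 27.2 CPM in the mutant, with a log2 fold change of -0.18 (SE 0.09, edgeR adjusted p = 0.338). *GLN6* (GRMZM2G050514) stayed between 0.377 and 1.79 CPM in all pools and *gln3* (GRMZM2G046601) under 0.1 CPM, too low for a firm comparison. How reads were shared among these paralogs in the counting is not stated, so the values of single genes carry that uncertainty.

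**Figure D4:**
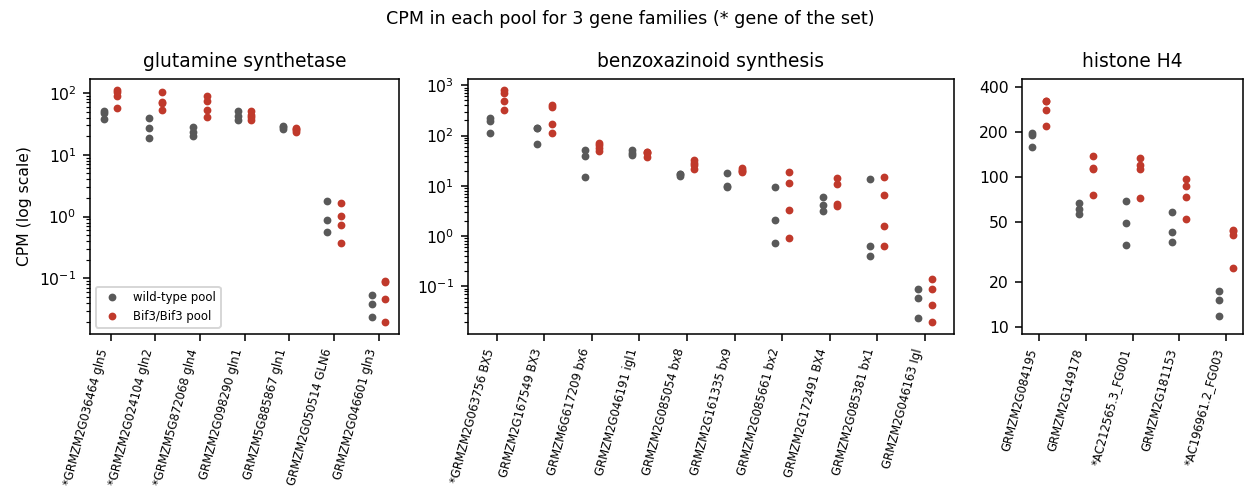
CPM on a log scale in each wild-type (grey) and *Bif3/Bif3* (red) pool for the glutamine synthetase, benzoxazinoid and histone H4 genes, with members of the set marked by an asterisk. Among glutamine synthetases, *gln2*, *gln4* and *gln5* separate by genotype while the *gln1* identifiers overlap, and the 3 histone H4 genes that are not members have a higher mean level in the mutant.

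Genes of sugar transport and the cell wall were highest in *Bif3/Bif3* replicate 4 in 7 of 8 cases. *SWEET4B* (GRMZM2G144581), of the SWEET family of sugar exporters and importers, was even in wild-type with 43.05, 38.2 and 41.9 CPM and had 106, 151, 67.8 and 201 CPM in the mutant. Replicate 4 was the highest and replicate 3 the lowest mutant pool, and the ratio of the means was 3.20. The beta-glucosidase 11 gene (GRMZM2G376416) had 23.1, 15.1 and 15.05 CPM and 43.4, 53.9, 33.98 and 88.1 CPM, a ratio of 3.09 with the same order of mutant pools as *SWEET4B*.

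Wall enzymes followed with lower ratios. The endoglucanase 1 gene (GRMZM2G331566), for cutting of glucan chains, had 14.9, 7.42 and 9.80 CPM in wild-type and 27.2, 31.2, 18.3 and 38.1 CPM in *Bif3/Bif3*. Of the beta-xylosidase genes, *xyl5* (GRMZM2G108032) had 41.1, 32.4 and 25.5 CPM and 62.003, 74.4, 70.2 and 82.7 CPM. Beta-D-xylosidase 4 (GRMZM2G136895) had 16.9, 20.9 and 23.2 CPM and 27.5, 33.8, 46.6 and 56.2 CPM. Both were lowest in mutant replicate 1, as were 13 of the 67 members, against 50 that were lowest in replicate 3. *PME22* (GRMZM2G167637), a pectin methylesterase gene, had 13.2, 10.99 and 13.9 CPM in wild-type and 25.6, 24.97, 25.1 and 27.1 CPM in the mutant, the smallest mutant spread, relative to its mean, of all 67 genes. *CAD6* (GRMZM2G700188), of the alcohol dehydrogenases that make lignin precursors, and the peroxidase 16 gene (AC210003.2_FG004) had ratios of 2.29 and 2.16.

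Further wall genes, among them expansins, which loosen walls, could be followed by symbol, and none of these was a member. Of 15 such wall genes fitted, 5 passed the threshold upward and 0 downward in the edgeR fit. The median log2 fold change of the 15 was 0.98. Only 6 of the 15 had at least 1 CPM as the average of the genotype means, and 3 of these 6 passed upward and 0 downward. *expB3* (GRMZM2G474194) had 7.05, 8.90 and 7.44 CPM in wild-type and 15.2, 19.1, 14.3 and 14.3 CPM in *Bif3/Bif3*, with a log2 fold change of 0.98 (SE 0.13, edgeR adjusted p = 0.0043). The list has 27 identifiers in all, of which 12 had too few counts to be fitted.

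Benzoxazinoids are the indole-derived defence compounds of maize, made by a chain of enzymes named BX. *BX5* (GRMZM2G063756), a cytochrome P450 of this chain, had 196, 221 and 113 CPM in wild-type and 714, 790.3, 325 and 493 CPM in *Bif3/Bif3*. Replicates 1 and 2 of the mutant were the high pools, and the means of 177 ± 56.5 and 581 ± 212 CPM gave a ratio of 3.29. Of the 9 other genes of the list that could be fitted, 2 passed the threshold, both upward, and the median log2 fold change was 0.68. *bx8* (GRMZM2G085054), a glucosyltransferase gene, had 16.04, 17.4 and 17.1 CPM in wild-type and 28.3, 32.4, 21.9 and 26.5 CPM in the mutant, with a log2 fold change of 0.66 (SE 0.12, edgeR adjusted p = 0.0144). *bx9* (GRMZM2G161335), the paralogous glucosyltransferase, had 9.35, 17.9 and 10.04 CPM and 18.7, 22.6, 20.3 and 20.03 CPM, with a log2 fold change of 0.68 (SE 0.19, edgeR adjusted p = 0.0853). The call for *bx9* was lost when any of 6 pools was left out, all but wild-type replicate 2.

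*BX3* (GRMZM2G167549), another P450 of the chain, showed the same high pools as *BX5* but overlapped between genotypes. It had 142, 142 and 69.2 CPM in wild-type and 369, 405, 111 and 171 CPM in *Bif3/Bif3*, with a log2 fold change of 1.13 (SE 0.38, edgeR adjusted p = 0.143). The genes of the first steps varied more between pools than between genotypes. *bx1* (GRMZM2G085381) had 0.647, 13.7 and 0.408 CPM in wild-type and 6.73, 15.4, 0.649 and 1.57 CPM in the mutant, and *bx2* (GRMZM2G085661) had 2.11, 9.42 and 0.718 CPM and 11.2, 19.1, 0.917 and 3.38 CPM. Both were high in wild-type replicate 2 and in mutant replicates 1 and 2.

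Of 8 other cytochrome P450 genes, 2 other beta-glucosidase genes and 2 UDP-glycosyltransferase genes that could be fitted, 0 passed the threshold with edgeR or DESeq2, and 2 of the P450 genes, 1 of the beta-glucosidase genes and 0 of the glycosyltransferase genes had an unadjusted p under 0.05 in the edgeR fit. These 2 P450 genes, *BX3* and *BX4*, are also in the benzoxazinoid list. The peroxidase gene *PER1* (GRMZM2G104394) had 2.56, 3.37 and 2.54 CPM in wild-type and 10.1, 9.36, 4.56 and 4.88 CPM in *Bif3/Bif3*, with a log2 fold change of 1.31 (SE 0.27, edgeR adjusted p = 0.0272), and it was 1 of 2 in its list. Over all lists together, without the members, 15 of 95 genes passed upward and 1 downward, against 3.39% and 0.598% of all genes fitted. The lists were chosen with earlier results of these data known, so this count was not tested against the rest. For 12 related genes given here with their values, an exact two-sided permutation test of the mean CPM over the 35 splits of the pools, whose smallest p is 0.0286, reached that value for *BA1*, *expB3* and *bx9*, in each case with no overlap between genotypes, and gave 0.0571 for *bHLH36*, *bx8* and the histone gene GRMZM2G149178. After Benjamini-Hochberg adjustment over the 12 the smallest value of this permutation test was 0.114. The 12 were chosen after their values were seen. The genes at the smallest p were too few, on their own, to give an adjusted value under 0.1.

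*JAC1* (GRMZM2G050412), by its name a jacalin-type lectin, took the most counts of the 67 genes. It had 329, 662 and 352 CPM in wild-type and 1289.8, 1330.1, 677 and 788 CPM in *Bif3/Bif3*, a ratio of 2.28 between means of 448 ± 186 and 1021 ± 337 CPM. Wild-type replicate 2 nearly reached mutant replicate 3, and this was the closest approach of the genotypes among all members. A mannose-specific jacalin-related lectin gene (GRMZM2G163406) fell just outside the set, because its lowest mutant pool at 559.7 CPM was below its highest wild-type pool at 562 CPM, with a ratio of 2.22. *PPO1* (GRMZM5G851266) had 147, 366 and 215 CPM in wild-type and 668, 777, 402 and 512 CPM in the mutant, and within each genotype its pools had the same order as those of *JAC1*. *JAC1*, *PPO1* and *BX5* alone held 34.2% of the counts that the members took in *Bif3/Bif3*, as a mean over pools.

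Other genes with a known link to defence or stress differed from this order. *PAD4* (GRMZM2G152739), named after a lipase-like regulator of immunity in Arabidopsis, had 12.7, 8.76 and 9.84 CPM in wild-type and 25.02, 28.2, 24.7 and 43.5 CPM in *Bif3/Bif3*, a ratio of 2.91 with replicate 4 on top. The tuberization-induced protein gene (GRMZM2G472248), nearest to the drought-induced *DI21* of Arabidopsis, had 7.43, 17.2 and 21.7 CPM and 36.02, 58.2, 22.8 and 36.2 CPM, and mutant replicate 3 was barely above wild-type replicate 3.

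Proteases formed a group of 4, each lowest among mutant pools in replicate 1 or 3 and, by the rule, above wild-type in every mutant pool. The subtilisin-like protease gene (GRMZM2G091578) had 22.5, 18.7 and 21.5 CPM in wild-type and 61.2, 73.2, 41.004 and 71.95 CPM in *Bif3/Bif3*, a ratio of 2.96. The aspartyl protease gene *AED3* (GRMZM2G024099) had 34.3, 26.3 and 42.8 CPM and 62.9, 88.9, 87.5 and 143 CPM, and the serine carboxypeptidase 1 gene (GRMZM2G052507) had 104, 63.1 and 94.003 CPM and 153, 209, 195 and 252 CPM. Both were highest in replicate 4 and lowest in replicate 1. *SEE2A* (GRMZM2G081626), a senescence-enhanced vacuolar processing enzyme gene, had 11.6, 16.5 and 13.2 CPM and 23.5, 30.3, 24.5 and 46.9 CPM, a ratio of 2.28.

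Of the remaining enzymes, *ALDH2* (GRMZM2G125268), an aldehyde dehydrogenase gene, had 125, 86.8 and 129.7 CPM in wild-type and 261, 332, 242 and 341 CPM in *Bif3/Bif3*, a ratio of 2.58 with pools well apart. The carboxy-lyase gene (GRMZM2G159149) had the next largest ratio after *WAT1*, 3.999, from 14.2, 24.2 and 13.998 CPM in wild-type and 134, 82.9, 25.5 and 37.5 CPM in the mutant. It was also the most variable member, with replicate 1 more than 5 times replicate 3, which was close to wild-type replicate 2. The ratios of the carboxylesterase 15 gene (GRMZM2G391795), the HAD-like hydrolase gene (GRMZM2G179432), the HXXXD-type acyl-transferase gene (GRMZM2G124066) and the phosphatidylinositol transfer protein gene (GRMZM2G142315) were 2.77, 2.75, 2.38 and 2.59. *PAP2* (GRMZM2G134054), a purple acid phosphatase gene, and a chloroplast thioredoxin-like gene (GRMZM2G181607) had ratios of 2.24 and 2.12.

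Histone H4, a core protein of the nucleosome, was represented by AC196961.2_FG003, with 17.3, 11.8 and 14.99 CPM in wild-type and 43.9, 41.1, 24.7 and 43.4 CPM in *Bif3/Bif3*, and AC212565.3_FG001, with 68.4, 35.04 and 49.001 CPM and 119, 113, 71.99 and 133 CPM. In both, the mutant pools other than replicate 3 were well above every wild-type pool. The 3 identifiers under the symbol *H4C13* are not members, and 3 of 3 passed the threshold upward. GRMZM2G149178, for example, had 67.02, 56.3 and 61.3 CPM in wild-type and 138, 112, 75.6 and 114 CPM in the mutant, with a log2 fold change of 0.80 (SE 0.16, edgeR adjusted p = 0.0188). Coding sequences of histone H4 genes are nearly identical, so reads may have been shared among all 5 genes, and they are not independent observations. *RPL4-1* (GRMZM2G018197), for a ribosomal protein, and *OEC33B* (GRMZM2G113349), for the oxygen-evolving complex of photosystem II, had ratios of 2.25 and 2.03. *OEC33B* was counted at 15.9 ± 4.03 CPM in wild-type and 32.4 ± 5.24 CPM in the mutant, although the 14 leaf markers together did not exceed 4.17 CPM in any pool.

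Among the members without a name, AC187262.4_FG007 took the most counts, with 59.9, 31.5 and 53.4 CPM in wild-type and 127, 180.3, 79.2 and 222 CPM in *Bif3/Bif3*, and its mutant pools had the order of *SWEET4B*. GRMZM2G080466 had 25.2, 56.7 and 38.9 CPM and 154, 159, 72.1 and 58.1 CPM, with wild-type replicate 2 close to mutant replicate 4. GRMZM2G020508 had 21.8, 13.02 and 13.9 CPM and 33.4, 42.9, 45.7 and 66.3 CPM, a ratio of 2.90. The ratios of the other 6 lay between 2.04 and 2.68. *AMO1* (GRMZM2G359298), *HAGTF35* (GRMZM2G050137), the fiber protein Fb15 gene (GRMZM2G138527) and the UPF0503 protein gene (GRMZM5G832491) had ratios of 2.12, 2.39, 2.01 and 2.13.

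The 67 genes differed more among pools of 1 genotype than the other genes with at least 10 CPM in wild-type. Those others had a higher median wild-type level, 39.5 against 17.5 CPM. A wide spread was not confined to the set, as the levels of *BX3*, *bHLH36* and *PER1* above show. The coefficient of variation (CV, the SD divided by the mean) over the *Bif3/Bif3* pools had a median of 26.4% in the members and 7.45% in the 13883 other genes, and over the wild-type pools 23.9% and 7.72%. The rule used the same pools, so no test is given. In 18 members the highest mutant pool was at least 2 times the lowest, and in 5 members the mutant CV was under 10%. *Bif3/Bif3* replicate 3 was the lowest mutant pool for 50 of the 67 members, against 18.1% of the other genes. Replicates 2 and 4 were the highest mutant pool for 29 members each, replicate 1 for 8 and replicate 3 for 1. Among the other genes, replicates 1 to 4 were the highest in 32.5%, 18.1%, 28.0% and 21.4%. *ZmWUS1* was likewise lowest in replicate 3 and highest in replicate 4, and the relation was not tested.

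The pools of both genotypes divided the members in a similar way, a pattern that was noticed in the levels and is given as a description. Of the 39 members that were lower in wild-type replicate 2 than in the mean of wild-type replicates 1 and 3, 33 were higher in *Bif3/Bif3* replicate 4 than in the mean of mutant replicates 1 and 2. Of the 28 members that were higher in wild-type replicate 2, 24 were lower in mutant replicate 4. Among other genes with at least 10 CPM, the same held for 3468 of 7013 that were lower in wild-type replicate 2. It held for 4593 of 6869 that were higher there. Across the 67 genes, Pearson's r between these log2 ratios was -0.71 and Spearman's rho -0.72, and across 13882 other genes with at least 10 CPM and counts in those pools r was -0.37 and rho -0.23. The genes share the same 7 libraries and are not independent replicates. The members with the strongest excess of mutant replicates 1 and 2 were the carboxy-lyase gene, GRMZM2G080466 and the receptor-like kinase gene GRMZM2G043470, with replicate 4 at 0.346, 0.371 and 0.410 times the mean of replicates 1 and 2. At the other end, replicate 4 was at 2.23 and 1.88 times that mean in *HAGTF35* and *AED3*.

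The roles, assigned by hand, are given over these classes as counts only. Replicate 4 was above the mean of replicates 1 and 2 for 7 of 8 genes of sugar transport and the cell wall, 4 of 4 proteases, 3 of 3 glutamine synthetases, 4 of 4 genes of chromatin, the ribosome and photosynthesis and 3 of 4 genes of hormone transport and breakdown. It was above that mean for 5 of 11 receptor kinase and signalling genes, 3 of 8 other enzymes and transfer proteins, 5 of 9 genes with no annotation and 2 of 5 with only a name, and for 1 of 4 defence and stress genes and 0 of 7 transcription factors. Over all members it was above for 37 and below for 30, and no test was made, since the classes were chosen after the values were seen. Which difference between the ears of a pool goes with these classes was not tested.

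**Figure D5:**
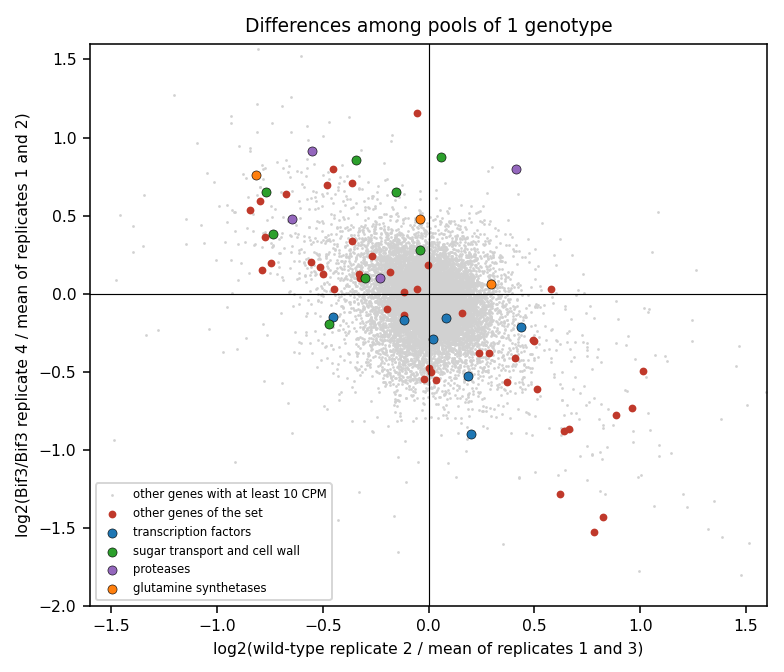
Log2 ratio of *Bif3/Bif3* replicate 4 to the mean of mutant replicates 1 and 2, against the log2 ratio of wild-type replicate 2 to the mean of wild-type replicates 1 and 3, for the 67 genes (coloured by role) and other genes with at least 10 CPM in wild-type (light grey, 26 of them outside the window). The 67 genes run from upper left to lower right, with the 7 transcription factors below the horizontal line at 0.

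By position, the members were scattered. In the gene order of the RefSeq table of assembly NAM-5.0, 55 of them could be placed among 16131 expressed genes. No 2 members were direct neighbours, and only *ZmbHLH32* and GRMZM2G054713 were closer than 10 expressed genes, with 2 between them. Of the members placed, the nearest to *ZmWUS1* was *PAD4*, with 854 expressed genes between them.

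The limits of the rule cut through a continuous range of levels. By fold, *ZmSBP29*, *GLN5* and the VAN3-binding protein gene were the last inside with ratios of 2.001, 2.002 and 2.003, and a GDSL esterase/lipase gene (GRMZM2G112686), a leucine-rich repeat receptor-like kinase gene (GRMZM5G860810) and *ZmHB120* (GRMZM2G056600) the first outside with 1.99, 1.98 and 1.98. By wild-type level, GRMZM2G030038, *CYP734A1* and *HAGTF35* were inside with 10.01, 10.05 and 10.3 CPM, and a GDSL esterase/lipase gene (GRMZM2G130528), *ZmGLK6* (GRMZM2G117193) and a cytochrome P450 gene (GRMZM2G171139) outside with 9.98, 9.94 and 9.77 CPM. By overlap, the lowest mutant pool was 1.02, 1.03 and 1.05 times the highest wild-type pool in *JAC1*, GRMZM2G080466 and *HAGTF35*. It was 0.995, 0.932 and 0.928 times that pool in the jacalin-related lectin gene, *AOC1* (GRMZM2G077316) and *TD1* (GRMZM2G300133), the maize counterpart of the stem cell receptor gene *CLAVATA1*.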

How the data were processed

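RNA-seq of ear primordia was deposited as 1 table of read counts per gene, whole numbers without normalization, for 3 wild-type and 4 *Bif3* pools. According to their methods, the authors used Trimmomatic for trimming, HISAT for alignment to B73 v3 and HTSeq-count for the counts per gene, whereas the submitters' processing notes name TopHat2 2.1.1 and Cuffdiff. Libraries were stranded, and the strand setting of the counting is not given in the sources used here.

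Groups came from the sample labels. CPM used column sums as library sizes and no correction for gene length, so levels of different genes are shares of counts and not molar amounts. The members and the gene lists were chosen with earlier results of these data known, and roles were assigned by hand from the annotation supplied with the study. Related genes were found by symbol in the RefSeq table of assembly NAM-5.0, which holds 56 of the 67 members and 19075 genes of the count table. It has no product names, so lists of SWEET, subtilisin and jacalin genes could not be formed. Protein, promoter and genome sequences were not analysed here.

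Counts of 40650 genes with at least 2 counts over all pools were fitted with edgeR 4.0.16 in R 4.3.3 (quasi-likelihood test in its earlier form, TMM scaling, no covariate, Benjamini-Hochberg adjustment over all genes fitted). The biological coefficient of variation was 0.171. Fold changes of members are ratios of mean CPM unless called log2 fold changes, which come from the fit.

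Genes named are the 10 members with the most counts, the 10 with the largest ratios, members that share a family or carry a maize symbol, and the 3 nearest to each limit on either side. Other members are named for completeness, and single related genes and the classes of pools were chosen after their values were seen. The alternatives tried were size factors of DESeq2 within edgeR, no TMM scaling, the fit of edgeR 4, DESeq2 1.42.0, a filter of at least 10 counts in at least 3 pools, every gene of the table, a block for the replicate number, leaving out each pool, an adjusted p under 0.05, and other limits of the rule.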

Additional observations from a re-analysis of the deposited data

Results flagged for a closer look

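Among the 67 genes, 3 had 1 *Bif3/Bif3* pool that lay far from the other mutant pools by Dixon's criterion for groups of 4. In independent, normally distributed groups chance places about 1 in 20 there. These genes share the same 4 mutant pools and were chosen on them, so nothing is read from the number. *CYP734A1* (GRMZM2G138750) had 35.8 CPM in replicate 4, with the other mutant pools between 22.7 and 24.3 CPM. The peroxidase 16 gene (AC210003.2_FG004) had 40.8 CPM in replicate 4, with the others between 24.4 and 26.5 CPM. The histone H4 gene AC196961.2_FG003 had 24.7 CPM in replicate 3, with the others between 41.1 and 43.9 CPM. All of these values are above the highest wild-type pool of their gene, as the rule requires. Wild-type, with 3 pools, was not examined in this way.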

How the results depend on the processing

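The set depended on its limits. It held 119 genes with a wild-type minimum of 5 CPM, 30 with 20 CPM, 300 with a fold of 1.5, 6 with a fold of 3 and 77 with overlap allowed. CPM on TMM-scaled library sizes gave 57 genes, 55 of them shared. With each pool left out it held between 54 (without *Bif3* replicate 2) and 97 genes (without *Bif3* replicate 3), sharing between 51 and 65 with the original. The members past the threshold were 58 to 66 with a pool left out and 65 to 67 otherwise, and 55 of 67 were past it in all 14 other fits. Their median log2 fold change was 1.10 to 1.23 with a pool left out. The calls lost most often, in 5 of the 14, were those of *HAGTF35* (edgeR 4, and without wild-type replicates 1 or 2 or *Bif3* replicates 3 or 4) and GRMZM2G472248 (without wild-type replicates 1 or 2 or *Bif3* replicates 1, 2 or 4). *JAC1*, GRMZM2G080466 and GRMZM2G054713 lost theirs without wild-type replicates 1 or 3 or *Bif3* replicates 1 or 2, and the carboxy-lyase gene without wild-type replicates 1 or 3 or *Bif3* replicate 2. Over all genes, 1380 passed upward and 243 downward, against 687 to 1817 and 114 to 327 with a pool left out. The lowest upward counts came without wild-type replicate 3 (687) and *Bif3* replicate 2 (713), and low downward counts of 137, 142 and 114 without wild-type replicate 3, *Bif3* replicate 1 and *Bif3* replicate 2. An adjusted p under 0.05 left 891 and 137. Of the related genes, 15 passed upward and 1 downward, against 8 to 19 and 1 to 2 with a pool left out (9 without wild-type replicate 3, 8 without *Bif3* replicate 2), and DESeq2 and the filter on low counts gave 2 downward. The cause of these shifts was not tested.

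Deviations of same-numbered pools correlated at 0.049, 0.54 and 0.25, and wild-type replicate 3 correlated more with *Bif3* replicate 4 (0.31). Correlations of pools with different numbers lay between -0.44 and 0.31. Whether the replicate numbers pair the samples was not tested, and the main fit used no block. With the number as a replicate block, 1994 genes passed upward and 394 downward, and 24 and 2 related genes did so. In that fit *Bif3* replicate 4 had no wild-type pool of its number, so it added nothing to the genotype contrast. Among 165 other values for 11 related genes, 9 lost and 7 gained a call, and 0 changed direction. With 3 wild-type pools, 1 pool can decide whether genotypes overlap, and counts of at least 300 leave pool differences, not counting error, as the main limit.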
